A study of Mus musculus with 3 samples.

Results

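The forkhead genes other than Foxn1 and Foxe1 were described in fetal mouse thymus. They were taken from the genes whose symbol in the feature lists begins with Fox, a letter from a to s and a digit, without Foxn1 and Foxe1. Described here are 42 of the 27998 genes counted, of which 41 are forkhead genes and 1, Foxo6os, is the antisense RNA of Foxo6. Of these, 27 had at least 30 UMIs (unique molecular identifiers, which mark single RNA molecules) in at least 1 of the 4 cell classes below.

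Forkhead proteins bind DNA through a winged-helix domain and are grouped by letter. The A proteins can open compact chromatin in the endoderm of the gut, lung and thyroid. The C, D, F and L members act mainly in mesenchyme, the connective tissue precursor, where F and L members lie downstream of hedgehog signals. The O proteins are held out of the nucleus when PI3K and Akt are active and otherwise drive genes of cell cycle arrest and stress. The P proteins repress genes with CtBP and NuRD partners, M1 drives genes of mitosis, J1 drives genes of motile cilia, and the K proteins work with the Sin3 repressor. Foxn1, left out here, is the factor on which thymic epithelial cells depend.

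The study compared thymic lobes of embryos at E13 to 13.5, from mice given as strain C57BL/6, by droplet 3′ RNA sequencing. There was 1 library of each genotype: wild type (the control), Tbx1neo2/neo2 and Foxn11089/1089. The Tbx1neo2 allele carries a neomycin cassette in intron 5 of Tbx1, the gene of a T-box factor needed in the pharynx. The Foxn1 1089 allele lacks 15 bases of the coding sequence. Both mutant lines have small thymic lobes and served as models of thymic hypoplasia. The number and sex of the embryos in each library were not given in the sources used here, and lobes were digested with trypsin with no sort named.

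After barcodes with fewer than 200 genes or 20% or more of mitochondrial UMIs were left out, 5932 remained in the control library, 5516 in the library labelled Tbx1neo2/neo2 and 11772 in the Foxn11089/1089 library, with median UMIs per cell of 13410, 20732.5 and 14652. The UMIs of Tbx1, summed over all kept cells, did not follow the label Tbx1neo2/neo2. They were 114 in the control library, 656 in the library labelled Tbx1neo2/neo2 and 1102 in the Foxn11089/1089 library. This was 1.39, 4.81 and 5.43 CPM (UMIs of the gene scaled to a common total), so the control library was the lowest. UMIs at a 3′ end do not show whether a transcript carries the insertion. Foxn1 UMIs numbered 3144, 4726 and 15525 in the 3 libraries, and they check nothing, since the 15-base deletion leaves the 3′ end in place. Pairs of libraries shared between 17 and 28 barcodes.

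Cells were placed in 4 classes by Epcam (epithelium), Pdgfra (mesenchyme), Cdh5 (endothelium) or Ptprc (blood leukocytes), with at least 2 UMIs of the gene and at least 80% of the UMIs of the 4 genes. The control library, the library labelled Tbx1neo2/neo2 and the Foxn11089/1089 library held 1985, 809 and 4082 Epcam-positive cells, 663, 1339 and 2265 Pdgfra-positive cells, 51, 94 and 108 Cdh5-positive cells, and 578, 299 and 319 Ptprc-positive cells. Of the marker lists of the 4 classes, each class had its own at the highest level, as in Epcam-positive cells, where the 8 genes of the epithelial list summed to 5222, 5702 and 2970 CPM. The mesenchymal list also reached 88.5, 150 and 288 CPM in Epcam-positive cells and 31.5, 150 and 373 CPM in Cdh5-positive cells. Hemoglobin and other red cell genes were found in the classes as well, as at 1784, 775 and 22474 CPM in Epcam-positive cells. The sum of the mesenchymal list in red blood cells, which should lack it, was 41.7, 64.8 and 73.1 CPM. Red cells were set apart by hemoglobin, and 39.1%, 47.4% and 25.5% of the kept cells were in no class.

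With 1 library per genotype no test between genotypes could be made, and there is no replicate check on any difference below. Levels are CPM within a class with exact Poisson 95% intervals. Ratios are log2 CPM of a mutant library minus the control library, less the median of the same over all genes that reached 30 UMIs in the class, with exact conditional binomial 95% intervals. All these intervals cover counting error only. The median ratio that was taken away lay between 0.16 and 0.46 on the log2 scale. Both comparisons use the same control library, so a control value that is high or low moves both.

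The most abundant of these 42 genes differed by class. In Epcam-positive cells the 5 of them with the highest summed level were Foxp1, Foxp4, Foxn3, Foxo3 and Foxk2, and in Pdgfra-positive cells they were Foxp2, Foxp1, Foxn3, Foxc2 and Foxc1. In Cdh5-positive cells they were Foxp1, Foxn2, Foxo1, Foxn3 and Foxc1, and in Ptprc-positive cells Foxp1, Foxo3, Foxn2, Foxk2 and Foxn3. Of the 27 genes that reached 30 UMIs in a class, 13 had UMIs in every library and their highest class in common to the 3 libraries. This was the Epcam-positive class for Foxo3, Foxj1, Foxq1, Foxa1 and Foxp4, the Pdgfra-positive class for Foxs1, Foxo4, Foxp2, Foxf1, Foxc2, Foxl1 and Foxd1, and the Cdh5-positive class for Foxo1. For Foxo3 the Ptprc-positive level was nearly as high in each library, as given below.

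**Figure D1:**
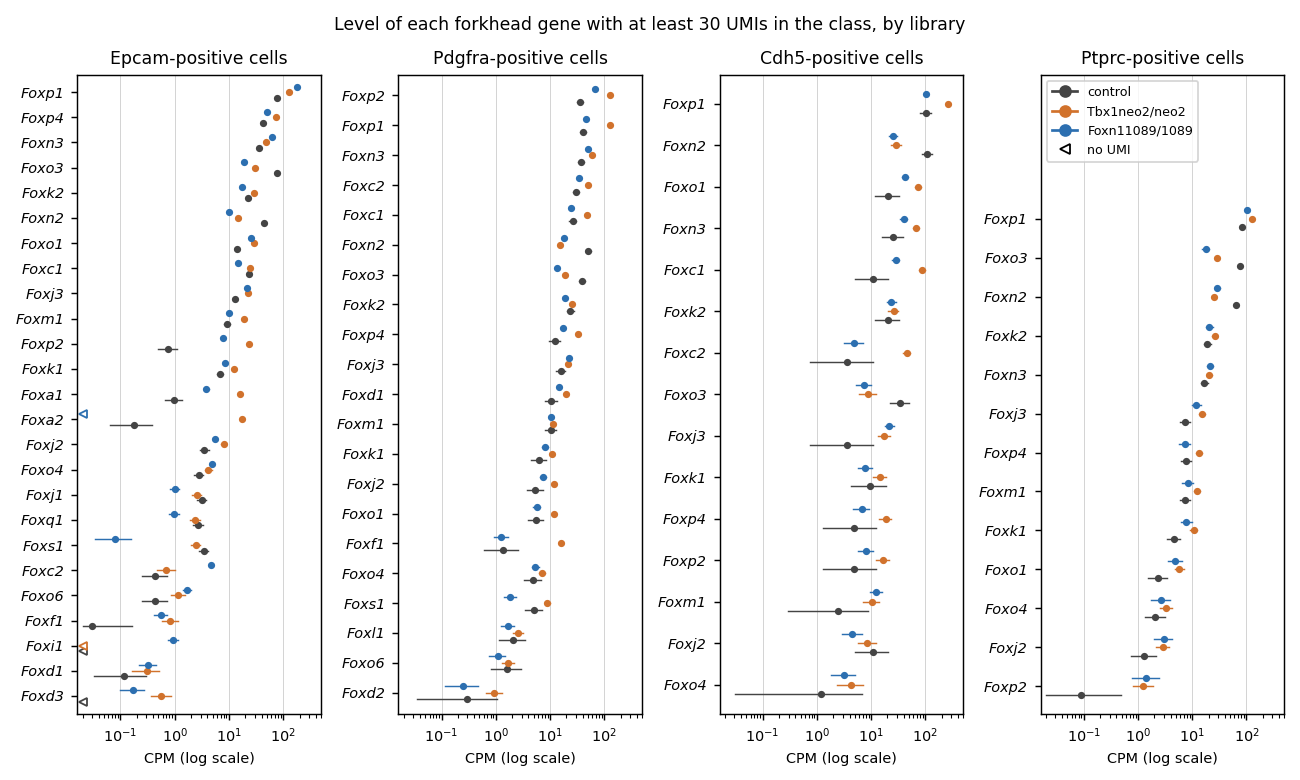
Level of each forkhead gene that reached 30 UMIs in the class, as CPM on a log axis, in 4 panels by class; points are the 3 libraries (colors) with exact Poisson 95% intervals cut at the left edge, and open triangles mark libraries with no UMI. Foxp1 leads 3 of the panels, with 76.8 to 182 CPM in Epcam-positive cells, whereas Foxa2 in that class is spread from no UMI to 17.1 CPM.

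Counts of forkhead genes at least 2-fold from the control were set beside the share of all genes that far apart. In Epcam-positive cells 7 of 24 forkhead genes were at least 2-fold apart in the library labelled Tbx1neo2/neo2, where 19.9% of all genes were, with 5 higher and 2 lower. Without centring 10 were higher and 2 lower, beside 17.8% and 5.89% of all genes. In the Foxn11089/1089 library the number apart was 13 of 25, against 24.9% of all genes, with 7 higher and 6 lower. In Pdgfra-positive cells it was 7 of 21 in the library labelled Tbx1neo2/neo2, against 19.4% of all genes, with 5 higher and 2 lower. The Foxn11089/1089 library had 3 of 21 apart, against 12.8%, and none of the 3 was higher.

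In Cdh5-positive cells 10 of 15 were apart in the library labelled Tbx1neo2/neo2, against 27.5% of all genes, with 8 higher and 2 lower. In the Foxn11089/1089 library 7 of 15 were, against 20.1%, with 4 higher and 3 lower. In Ptprc-positive cells the library labelled Tbx1neo2/neo2 had 3 of 13 apart, against 13.4%, with 1 higher and 2 lower. Without centring 4 were higher and 2 lower, beside 13.8% and 3.11% of all genes. The Foxn11089/1089 library had 3 of 13 apart, against 18.6%, with 1 higher and 2 lower. Without centring 3 were higher and 2 lower, beside 12.7% and 6.36% of all genes. With so few genes tested, the share of forkhead genes apart was not far from that of all genes in both Ptprc comparisons (23.1% in each). Nor was it far in Pdgfra-positive cells of the Foxn11089/1089 library (14.3%). The same holds for Epcam- and Pdgfra-positive cells of the library labelled Tbx1neo2/neo2 (29.2% and 33.3%). The median ratio of the forkhead genes tested was between -0.11 and 0.45 in every comparison but 1, Cdh5-positive cells of the library labelled Tbx1neo2/neo2, where it was 1.30.

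**Figure D2:**
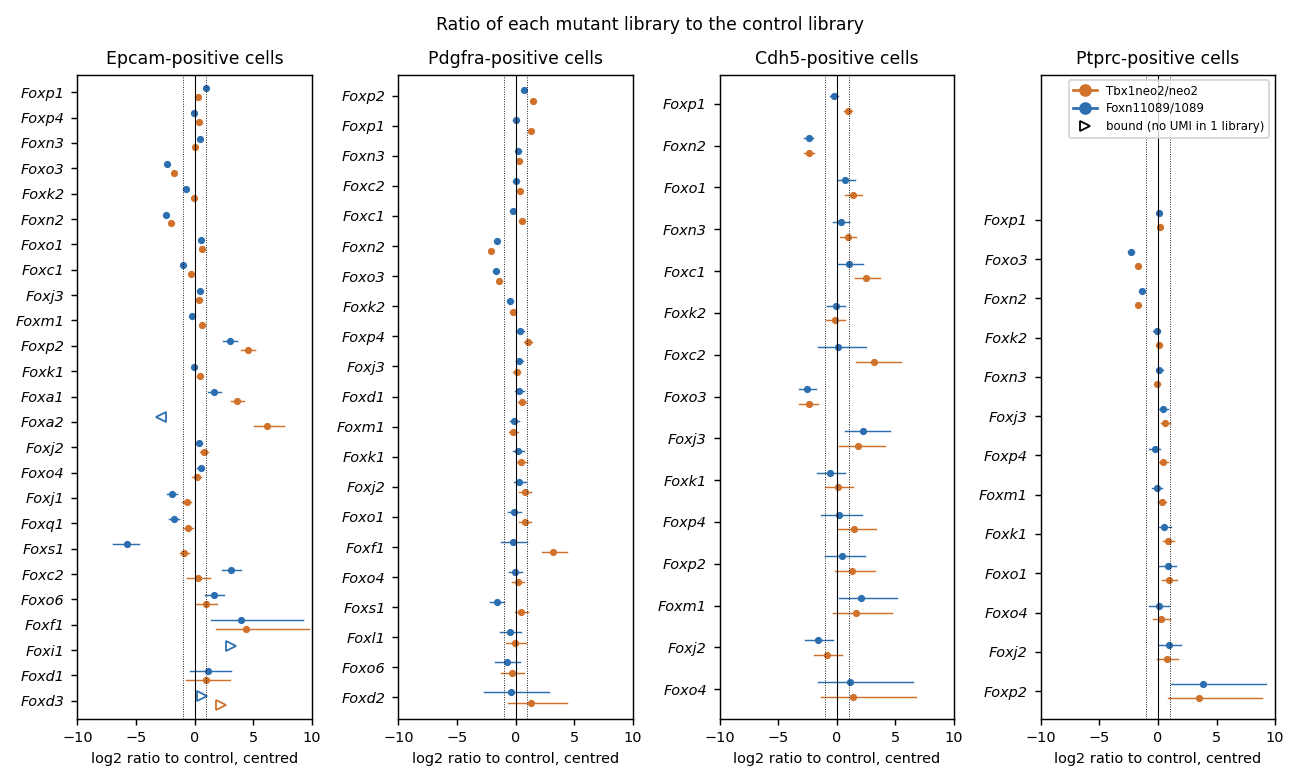
Log2 ratio of each mutant library to the control library, centred on the median of all genes, for every forkhead gene that reached 30 UMIs in the class, in 4 panels by class, with 95% intervals for counting error; dotted lines mark 2-fold and open triangles are values with 3 counts set for a library with no UMI. Foxo3 and Foxn2 lie left of the 2-fold line in every panel and for both libraries, between -1.38 and -2.52.

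Foxo3 and Foxn2 were lower than in the control in all 4 classes of both mutant libraries. Foxo3 is a FoxO factor of stress and quiescence, and Foxn2 is a little-studied relative of Foxn1. In Epcam-positive cells Foxo3 was at 77.7 CPM in the control library (interval 74.8 to 80.7, 2638 UMIs), 30.1 CPM in the library labelled Tbx1neo2/neo2 (1279 UMIs) and 19.1 CPM in the Foxn11089/1089 library (1918 UMIs). The centred ratios were -1.76 (-1.86 to -1.66) and -2.32 (-2.40 to -2.23). The control library was the high one, and no interval of a mutant library overlapped that of the control.

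Foxo3 showed the same order in leukocytes. In Ptprc-positive cells its level was 74.8, 29.1 and 17.9 CPM from 857, 531 and 175 UMIs in the control library, the library labelled Tbx1neo2/neo2 and the Foxn11089/1089 library, with ratios of -1.72 (-1.88 to -1.56) and -2.29 (-2.53 to -2.06). In Pdgfra-positive cells the levels were 39.4, 19.1 and 13.4 CPM from 266, 712 and 488 UMIs, with ratios of -1.41 (-1.61 to -1.20) and -1.71 (-1.93 to -1.49). The mesenchymal levels were less far apart than the epithelial ones, and the intervals of their ratios did not overlap. In Cdh5-positive cells there were 28, 31 and 39 UMIs, or 33.9, 8.81 and 7.27 CPM, with ratios of -2.41 (-3.19 to -1.62) and -2.52 (-3.26 to -1.77).

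Foxn2 was highest in endothelial cells of the control. In Cdh5-positive cells it was at 108, 28.7 and 25.2 CPM from 89, 101 and 135 UMIs in the control library, the library labelled Tbx1neo2/neo2 and the Foxn11089/1089 library, with ratios of -2.37 (-2.80 to -1.94) and -2.40 (-2.80 to -2.00). In Epcam-positive cells 1497, 616 and 992 UMIs gave 44.1, 14.5 and 9.89 CPM, with ratios of -2.00 (-2.13 to -1.86) and -2.45 (-2.57 to -2.34). The control library was again the high one. In Pdgfra-positive cells 342, 569 and 667 UMIs gave 50.6, 15.3 and 18.4 CPM, with ratios of -2.09 (-2.29 to -1.90) and -1.63 (-1.82 to -1.43). In Ptprc-positive cells 740, 466 and 284 UMIs gave 64.5, 25.5 and 29.0 CPM, with ratios of -1.70 (-1.87 to -1.53) and -1.38 (-1.58 to -1.18).

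The difference in Foxo3 and Foxn2 was also seen outside the classes, but not in all cells. In cells of no class Foxo3 was at 69.8, 22.0 and 14.7 CPM and Foxn2 at 61.4, 18.4 and 19.1 CPM. In red cells Foxo3 was at 18.9, 22.0 and 12.1 CPM, with the control library in the middle, and Foxn2 was near 0 in every library, at 0.591, 0.437 and 0.869 CPM. With each Epcam-positive cell thinned to 2000 UMIs, Foxo3 was found in 13%, 5.24% and 3.57% of cells (55.7%, 65.6% and 32.3% unthinned). Foxn2 was found in 7.36%, 1.75% and 1.86% of thinned Epcam-positive cells, beside 0%, 0% and 0.301% of red cells; 0 of 326 control red cells allows a share of cells with a UMI at this depth of up to 0.920%, which sets no limit on cells that express the gene. Every alternative in every class where they were tested left both genes at least 2-fold lower in both mutant libraries. The control library had the lowest median mitochondrial share, 2.59% beside 5.80% and 5.03%, and the part of such library-wide differences in these values was not tested.

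**Figure D3:**
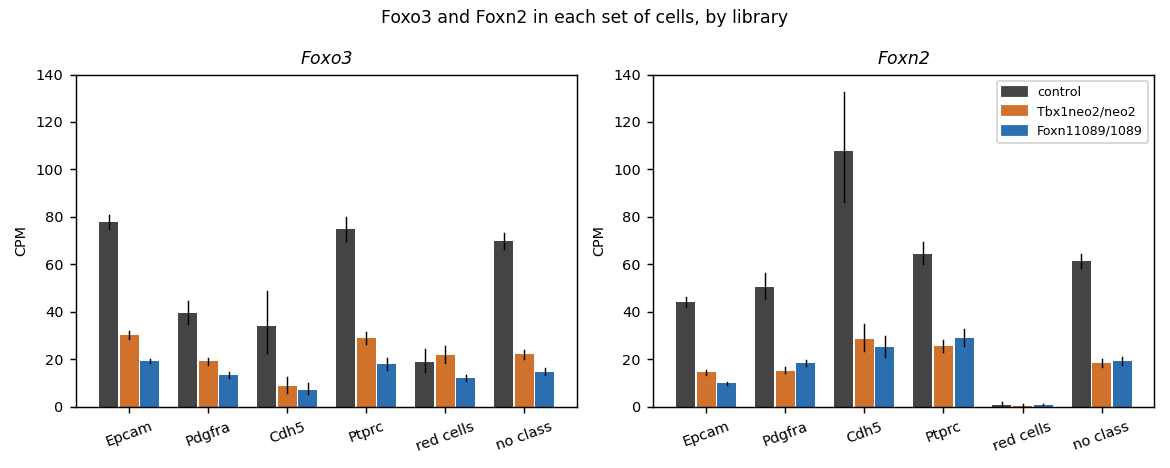
Bars give the CPM of Foxo3 (left) and Foxn2 (right) from 0, in the 4 classes, in red cells and in cells of no class, for the 3 libraries (colors), with exact Poisson 95% intervals. The control bar is the tallest in each class and in cells of no class, as at 77.7 CPM against 30.1 and 19.1 CPM for Foxo3 in Epcam-positive cells, but not for Foxo3 in red cells, at 18.9 CPM against 22.0 and 12.1 CPM.

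The sequence upstream of Foxo3 is shown because the gene was lower in every class. It is taken from RefSeq (GRCm38.p6), chr10:42276696-42276945 on the minus strand, is printed 5′ to 3′ up to the start site, and has 76.4% G or C. Capitals mark GC boxes (GGGCGG or its complement), the binding sequence of Sp1, of which a search of both strands found 5.
Foxo3 upstream: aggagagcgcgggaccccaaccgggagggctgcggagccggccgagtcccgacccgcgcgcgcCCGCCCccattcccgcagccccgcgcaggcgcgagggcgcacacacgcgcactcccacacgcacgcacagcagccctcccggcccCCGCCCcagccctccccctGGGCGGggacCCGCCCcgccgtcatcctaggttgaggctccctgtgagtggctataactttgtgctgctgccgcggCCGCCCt
RefSeq promoters were matched for 28 of the 42 genes, with 33 start sites. A GC box was in 66.7% of these upstream windows and in 32.7% of all 32851 windows of the same length. No TGTTTAC, the core of the forkhead motif, was in the Foxo3 window.

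The other FoxO genes did not follow Foxo3. Foxo1, an endothelial and lymphoid FoxO factor, was at 14.0, 28.6 and 25.4 CPM in Epcam-positive cells, with the control library lowest. In Cdh5-positive cells it was at 20.6 CPM in the control library (12.0 to 32.9, 17 UMIs), 73.6 CPM in the library labelled Tbx1neo2/neo2 (64.9 to 83.1, 259 UMIs) and 41.6 CPM in the Foxn11089/1089 library (36.3 to 47.4, 223 UMIs), with ratios of 1.37 (0.67 to 2.18) and 0.71 (0.00 to 1.52). Foxo4 stayed between 1.21 and 7.13 CPM in every class, and its Cdh5-positive ratios of 1.35 (-1.35 to 6.75) and 1.09 (-1.59 to 6.47) rest on 1 UMI in the control library against 15 and 17 UMIs. Foxo6 in Epcam-positive cells had 15, 49 and 169 UMIs, or 0.442, 1.15 and 1.68 CPM, with ratios of 0.99 (0.13 to 1.93) and 1.64 (0.87 to 2.50). All 3 genes had their lowest Epcam-positive level in the control library.

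The list of FoxO control and target genes (PI3K and Akt genes, insulin receptor genes and known targets) was apart about as often as all genes in Epcam-positive cells. There 1 of 21 was at least 2-fold higher and 3 were lower in the library labelled Tbx1neo2/neo2, with a list median of 0.08, against 19.9% of all genes apart. In the Foxn11089/1089 library 2 were higher and 4 lower, with a list median of 0.16, against 24.9%. In Cdh5-positive cells of the library labelled Tbx1neo2/neo2 5 of 16 were higher and 1 was lower, with a list median of 0.58, against 27.5%. Medians of all genes are 0 by the centring. Cdkn1b, the cyclin-dependent kinase inhibitor p27, was lower with Foxo3 in Epcam-positive cells, at 31.4, 14.4 and 17.4 CPM in the control library, the library labelled Tbx1neo2/neo2 and the Foxn11089/1089 library, with ratios of -1.51 and -1.15. In Pdgfra-positive cells Cdkn1b was at 36.7, 17.2 and 19.1 CPM, and in Ptprc-positive cells at 36.2, 18.6 and 19.6 CPM. Irs2, an adaptor of the insulin receptor, was lower in the Foxn11089/1089 library only. In Epcam-positive cells it was at 34.4 CPM in the control library, 46.9 CPM in the library labelled Tbx1neo2/neo2 and 15.6 CPM in the Foxn11089/1089 library. Its ratios were 0.06 and -1.44. Other FoxO targets went the other way, as did Ccng2, a cyclin linked to arrest, at 6.57 and 22.7 CPM in Epcam-positive cells of the control and Foxn11089/1089 libraries.

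Foxa1, Foxa2 and Foxp2 were well above the control in Epcam-positive cells of the library labelled Tbx1neo2/neo2. Foxa2, a pioneer factor of gut and airway endoderm, had 6 UMIs in Epcam-positive cells of the control library, 726 in the library labelled Tbx1neo2/neo2 and 0 in the Foxn11089/1089 library, or 0.177 (0.0649 to 0.385), 17.1 (15.8 to 18.3) and 0 CPM. The ratio was 6.20 (5.07 to 7.65) in the library labelled Tbx1neo2/neo2. In the Foxn11089/1089 library, with no UMI, the interval of the ratio lay below -2.09, and the 6 control UMIs were in 2 cells. Nearly all Foxa2 UMIs were thus in the library labelled Tbx1neo2/neo2.

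Foxa1, the close relative of Foxa2, was at 0.972, 15.9 and 3.81 CPM from 33, 675 and 382 UMIs in Epcam-positive cells of the control library, of that labelled Tbx1neo2/neo2 and of the Foxn11089/1089 library. Its ratios were 3.64 (3.14 to 4.19) and 1.67 (1.16 to 2.23). Foxp2, a FoxP repressor of lung and forebrain, had 26, 999 and 767 UMIs, or 0.766, 23.5 and 7.65 CPM, with ratios of 4.55 (3.99 to 5.17) and 3.02 (2.46 to 3.65). For both genes the control library was lowest, with intervals that did not overlap those of the mutant libraries.

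These UMIs lay in few cells. In the library labelled Tbx1neo2/neo2, 164 Epcam-positive cells had at least 3 UMIs of the thyroid list (Nkx2-1, Pax8, Tg and Tshr), beside 3 in the control library and 17 in the Foxn11089/1089 library. Of the 164 cells, 108 had UMIs of Foxe1, a forkhead gene of the thyroid, and 56 did not, a split chosen after the values were seen. Foxa2 was found in 53 of the 56 cells without Foxe1, in 15 of the 108 with it and in 6 of the other 645 Epcam-positive cells. Its level was 236 CPM without Foxe1, 7.94 CPM with Foxe1 and 0.608 CPM in the other cells. Foxa1 followed at 212, 9.09 and 0.882 CPM, and 63 cells held both genes of 83 with Foxa1 and 74 with Foxa2.

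Foxp2 was spread over both sets. It was at 103 CPM in cells without Foxe1, 75.9 CPM in cells with Foxe1 and 5.78 CPM in the other Epcam-positive cells of the library labelled Tbx1neo2/neo2. So Foxa2 was set apart from the cells with Foxe1, whereas Foxp2 was found on both sides of the split.

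The cells without Foxe1 differed from the cells with it in more than forkhead genes. Nkx2-1, a factor of thyroid and lung, was at 213 CPM without Foxe1 and 455 CPM with it, whereas Pax8, a factor of the thyroid, had no UMI without Foxe1 and 283 CPM with it. Sox2, a factor of foregut and airway, was at 383 and 11.7 CPM in that order, Shh, the hedgehog ligand, at 83.8 and 2.60 CPM, and Wnt7b at 277 and 12.8 CPM. Foxn1 was at 5.08 and 2.60 CPM in these sets and at 136 CPM in the other cells. No cell type was given to the cells without Foxe1. Without the thyroid-list cells of each library, 4 of 22 forkhead genes in place of 7 of 24 were at least 2-fold apart in Epcam-positive cells of that library, and the Foxa1 ratio was -0.48. The share of all genes apart in that setting is not shown here.

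Foxa2 also went with the sex genes of these cells. Of the 726 UMIs, 681 were in 65 of the 554 cells with UMIs of Y-linked genes but none of Xist, the RNA of the inactive X chromosome. There were 0 in the 152 cells with Xist and no Y-linked gene. The part of single embryos in the library was not tested.

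**Figure D4:**
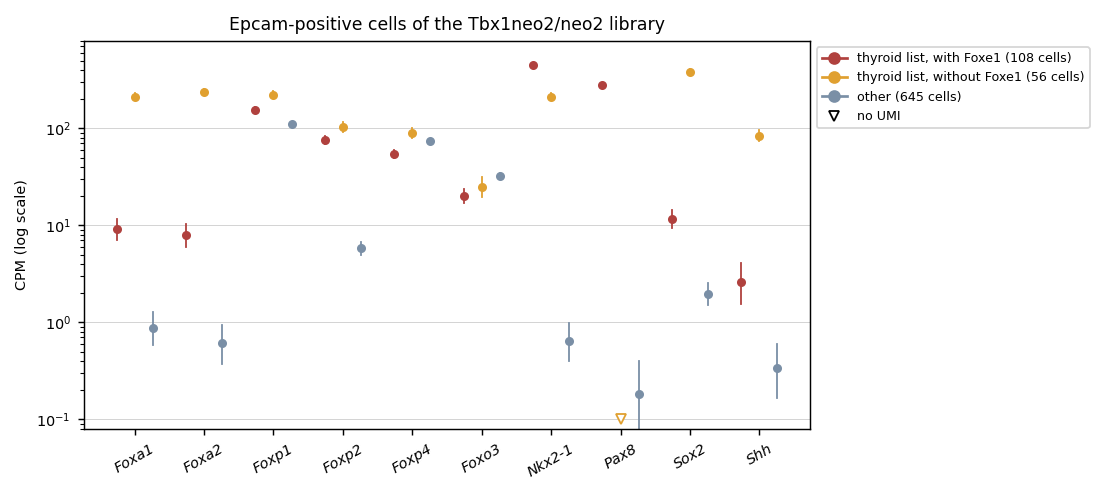
CPM on a log axis of forkhead genes and of Nkx2-1, Pax8, Sox2 and Shh in 3 sets of Epcam-positive cells of the library labelled Tbx1neo2/neo2 (colors), with exact Poisson 95% intervals for counting error; an open triangle marks no UMI. Foxa1 and Foxa2 stand at 212 and 236 CPM in the 56 thyroid-list cells without Foxe1 and under 1 CPM in the 645 other cells.

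The sequences upstream of Foxa1 and Foxa2 are shown because these genes were found together in the same cells. Foxa1 lies at chr12:57546112-57546361 and the outermost of 3 Foxa2 start sites at chr2:148046970-148047219, both on the minus strand (RefSeq, GRCm38.p6). Capitals mark GC boxes, CCAAT boxes and, in Foxa1, the letters GTAAACA, which read TGTTTAC on the other strand.
Foxa1 upstream: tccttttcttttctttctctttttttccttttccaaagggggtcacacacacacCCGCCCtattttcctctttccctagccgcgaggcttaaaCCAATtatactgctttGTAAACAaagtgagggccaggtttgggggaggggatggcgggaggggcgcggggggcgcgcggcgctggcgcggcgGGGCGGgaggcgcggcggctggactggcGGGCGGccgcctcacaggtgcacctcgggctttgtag
Foxa2 upstream: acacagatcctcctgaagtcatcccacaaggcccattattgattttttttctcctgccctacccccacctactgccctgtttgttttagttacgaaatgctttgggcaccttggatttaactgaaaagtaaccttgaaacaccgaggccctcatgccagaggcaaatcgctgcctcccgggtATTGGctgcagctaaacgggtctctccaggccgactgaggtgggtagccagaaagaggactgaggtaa
The Foxa1 window was the only 1 of the 33 forkhead-gene windows with TGTTTAC, 141 bases before the start, and 3.17% of all windows held these letters. The CTCAAG motif of NKX2-1 was in 15.2% of the forkhead-gene windows and 13.3% of all windows. The T-box letters AGGTGTGA were in none of the forkhead-gene windows and in 1.12% of all windows.

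In the Foxn11089/1089 library the epithelial Foxp2 and Foxa1 UMIs were in other surroundings. The 149 Epcam-positive cells with more than 1 Foxp2 UMI held Gcm2, the factor of parathyroid fate, at 205 CPM beside 23.3 CPM in the rest. Casr, the calcium-sensing receptor, was at 48.6 and 5.81 CPM in the same sets. The 215 cells with Foxa1 held Bpifa1, a secreted protein of airway and mouth epithelium, at 1148 CPM beside 48.5 CPM, and Krt5, a basal keratin, at 560 and 200 CPM. Foxa2 had no UMI in any of these cells.

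Foxp1 was abundant in the epithelium of every library. Foxp1, the broadest FoxP repressor, was at 76.8 (73.8 to 79.8), 125 (122 to 129) and 182 (179 to 184) CPM in Epcam-positive cells of the control library, of that labelled Tbx1neo2/neo2 and of the Foxn11089/1089 library, from 2606, 5335 and 18238 UMIs. Its ratios of 0.32 (0.25 to 0.39) and 0.95 (0.89 to 1.01) stayed under 2-fold. In cells with Foxn1 UMIs Foxp1 was at 74.6, 112 and 194 CPM, and in cells without them at 81.1, 168 and 141 CPM. It was thus higher without Foxn1 in the library labelled Tbx1neo2/neo2 and higher with Foxn1 in the Foxn11089/1089 library. In the library labelled Tbx1neo2/neo2, however, most of the 222 cells without Foxn1 UMIs were thyroid-list cells. Only 7 of 108 thyroid-list cells with Foxe1 and 5 of 56 without it held Foxn1. Foxp1 was at 156 and 222 CPM in these sets and at 111 CPM in the other cells, and their part in the split was not tested.

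The other abundant epithelial genes were within 2-fold of the control, save Foxo3. Foxp4, a FoxP gene of gut and airway epithelium, was at 42.4, 72.4 and 49.9 CPM in Epcam-positive cells (ratios of 0.38 and -0.06), and Foxn3, a checkpoint repressor, at 36.4, 47.6 and 62.4 CPM (ratios of 0.00 and 0.48).

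Foxs1, Foxj1 and Foxq1 were also below the control in Epcam-positive cells of the Foxn11089/1089 library. Foxs1, a small forkhead gene also found in pericytes, had 117, 104 and 8 UMIs in Epcam-positive cells of the control library, of that labelled Tbx1neo2/neo2 and of the Foxn11089/1089 library, or 3.45, 2.44 and 0.0797 CPM. Its ratios were -0.89 (-1.28 to -0.49) and -5.73 (-6.97 to -4.70), so the Foxn11089/1089 library was the low one. In the control library the 75 cells with Foxs1 held the medullary keratins Krt5 at 4063 CPM (467 CPM in the other cells) and Krt17 at 3149 CPM (305 CPM). They held Cd40, a receptor of medullary growth signals, at 80 CPM against 4.21 CPM, and Psmb11, the cortical proteasome subunit, at 96.7 against 233 CPM. The pericyte gene Rgs5 was higher in them too, at 26.2 beside 2.49 CPM, with UMIs in 16 of the 75 cells. Pdgfrb was at 2.18 beside 1.57 CPM, with 3 UMIs in the Foxs1 cells. In the library labelled Tbx1neo2/neo2 Krt5 was at 5976 CPM in the 36 Foxs1 cells and 511 CPM in the others. Rgs5 was at 20.1 and 7.06 CPM in the same sets.

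Foxj1, the factor of motile cilia, had 107, 110 and 101 UMIs, or 3.15, 2.58 and 1.01 CPM, with ratios of -0.68 (-1.07 to -0.28) and -1.94 (-2.35 to -1.54). The 98 control cells with Foxj1 had no UMI of the cilia genes Tppp3, Ccdc153 and Tmem212. In the 1887 control cells without Foxj1, Ccdc153 and Tmem212 also had 0 UMIs and Tppp3 had 28 in 26 cells. With genes this scarce, the absence cannot show whether the cells with Foxj1 differ from the rest. Foxq1, a gene of epithelial plasticity, had 91, 102 and 98 UMIs, or 2.68, 2.40 and 0.977 CPM, with ratios of -0.55 (-0.97 to -0.13) and -1.75 (-2.18 to -1.32). In Epcam-positive cells of the Foxn11089/1089 library 3 of 5 genes of the medullary list were also at least 2-fold lower and 1 was higher. Of the cortical list 5 of 5 were lower, and 24.9% of all genes were apart. The list medians were -1.72 and -3.62, and the part of these lists in the forkhead ratios above was not tested.

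Of the epithelial members higher in the Foxn11089/1089 library, Foxc2 was found with genes of mesenchyme and Foxi1 in a small set of cells. Foxo6, by contrast, was spread over 155 cells with at most 3 UMIs in any of them. Foxc2, a factor of mesenchyme and vessels, had 15, 30 and 470 UMIs in Epcam-positive cells of the control library, of that labelled Tbx1neo2/neo2 and of the Foxn11089/1089 library, or 0.442, 0.705 and 4.68 CPM, with ratios of 0.28 (-0.65 to 1.28) and 3.11 (2.37 to 3.96). The 343 cells with Foxc2 in the Foxn11089/1089 library held the collagen gene Col3a1 at 242 CPM beside 58.5 CPM in the rest, Lum at 188 beside 39.0 CPM, and Pdgfra at 20.4 beside 5.46 CPM. Epcam was at 962 and 1064 CPM and Foxn1 at 132 and 150 CPM in the same sets. So these cells held Epcam and Foxn1 near the level of the rest and mesenchymal genes above it. The mesenchymal list as a whole, 8 genes with none at 0, was at 88.5 CPM in control and 288 CPM in Foxn11089/1089 Epcam-positive cells, and its part in the Foxc2 ratio was not tested.

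Foxi1, the factor of ionocytes in airway and kidney, had 0 UMIs in Epcam-positive cells of the control library and of the library labelled Tbx1neo2/neo2, and 95 in the Foxn11089/1089 library (0.947 CPM). The interval of the ratio to the control lay above 2.80. The 95 UMIs were in 15 cells, 49 of them in 1. As a sum, these cells held Pou2f3, the factor of tuft cells, at 25.0 CPM beside 0.852 CPM in the rest, and Gng13 at 71.6 beside 1.64 CPM. Pou2f3 was found in 6 of the 15 cells and in 70 cells of the rest, and Gng13 in 11 of the 15. Both genes were chosen after the values were seen.

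Foxf1, Foxd1 and Foxd3 were scarce in the epithelium. Foxf1, a target of hedgehog in gut and lung mesenchyme, had 1, 35 and 55 UMIs in the control library, the library labelled Tbx1neo2/neo2 and the Foxn11089/1089 library, with ratios of 4.41 (1.84 to 9.76) and 3.92 (1.38 to 9.25). Foxd1, a gene of kidney and facial mesenchyme, had 4, 13 and 32 UMIs and ratios of 0.99 (-0.71 to 3.06) and 1.14 (-0.35 to 3.10). Foxd3, a factor of neural crest and its glia, had 0, 24 and 17 UMIs, with an interval of the ratio above 1.87 in the library labelled Tbx1neo2/neo2, where 20 of 24 UMIs were in 1 cell. Foxc1, the relative of Foxc2, was more abundant at 23.4, 24.5 and 14.8 CPM, with ratios of -0.32 (-0.46 to -0.19) and -0.95 (-1.08 to -0.83), just inside 2-fold.

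In Pdgfra-positive cells Foxp2 and Foxp1 were higher in the library labelled Tbx1neo2/neo2. Foxp2 was at 36.0 (31.6 to 40.8), 127 (123 to 131) and 66.6 (64.0 to 69.3) CPM in the control library, the library labelled Tbx1neo2/neo2 and the Foxn11089/1089 library, from 243, 4732 and 2419 UMIs. Its ratios were 1.45 (1.27 to 1.65) and 0.73 (0.54 to 0.92). Foxp1 was at 40.7, 130 and 45.3 CPM from 275, 4831 and 1646 UMIs, with ratios of 1.31 (1.13 to 1.49) and -0.01 (-0.19 to 0.18). For Foxp1 the control and Foxn11089/1089 intervals overlapped, and the library labelled Tbx1neo2/neo2 stood alone. Foxp4 followed at 12.1, 32.4 and 17.5 CPM from 82, 1207 and 635 UMIs, with ratios of 1.05 (0.73 to 1.39) and 0.36 (0.03 to 0.71). The partners of FoxP proteins (CtBP, NuRD and NFAT genes) had 0 of 10 higher and 1 lower in this comparison, with a list median of -0.03.

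Foxf1 stood well above the control in the mesenchyme of 1 library. It had 9, 591 and 46 UMIs in Pdgfra-positive cells of the control library, of that labelled Tbx1neo2/neo2 and of the Foxn11089/1089 library, or 1.33, 15.8 and 1.27 CPM, with ratios of 3.21 (2.27 to 4.34) and -0.24 (-1.28 to 0.98). The library labelled Tbx1neo2/neo2 was the high one, and the intervals of the other libraries overlapped.

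The Foxf1 UMIs of that library were in 209 of 1339 cells. Cells with Foxf1 held Sox9, a factor of cartilage and airway, at 273 CPM beside 64.9 CPM in the rest, Hoxa5, a Hox gene of lung and neck, at 198 beside 59.0 CPM, and Tbx4, a T-box gene of lung and hindlimb mesenchyme, at 23.0 beside 4.05 CPM. The hedgehog genes Ptch1, at 39.0 beside 16.1 CPM, and Hhip, at 19.1 beside 1.77 CPM, were also higher there. Of the forkhead genes, Foxp2 was higher in these cells, at 230 beside 106 CPM, and Foxc2 was lower, at 30.4 beside 53.8 CPM.

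Xist differed between these cells. It was at 61.7 CPM in cells with Foxf1 and 110 CPM in cells without. Of the 591 Foxf1 UMIs of this class, 471 were in 184 of the 1112 cells with Y-linked genes and no Xist. In the 120 cells with Xist and no Y-linked gene there were 16, in 9 cells, and the rest were in cells with both or neither. The 1112 cells were most of the 1339 cells of the class, and 471 of 591 UMIs is near their share. The number of embryos behind these cells is not known here, and its part was not tested. With the Foxf1 cells left out, Foxp1 and Foxp2 remained at least 2-fold higher, at 1.21 and 1.22, and 5 of 20 forkhead genes were apart in place of 7 of 21. The share of all genes apart without these cells is not shown here.

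**Figure D5:**
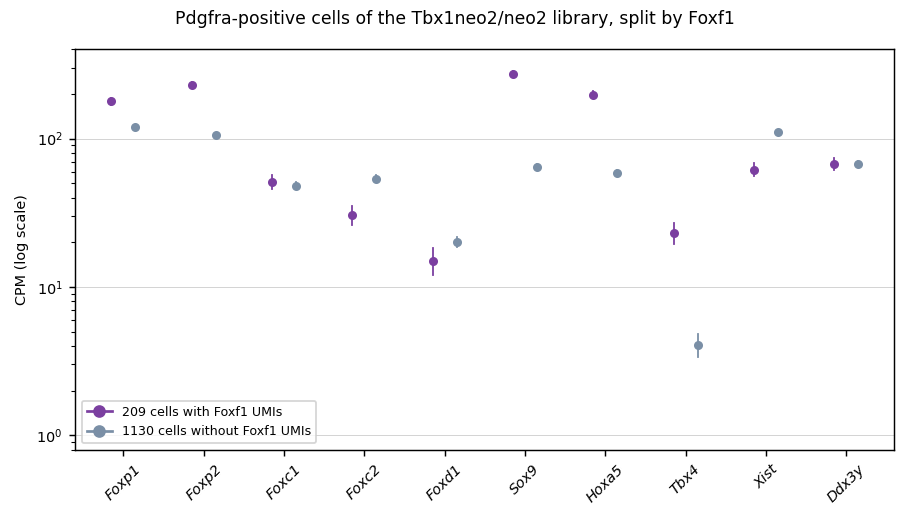
CPM on a log axis of 5 forkhead genes, Sox9, Hoxa5, Tbx4, Xist and the Y-linked gene Ddx3y in Pdgfra-positive cells of the library labelled Tbx1neo2/neo2 with (purple) and without (gray) a UMI of Foxf1, with exact Poisson 95% intervals for counting error. Sox9, Hoxa5 and Tbx4 are higher in the cells with Foxf1, as at 273 against 64.9 CPM for Sox9, and Foxc2 is lower, at 30.4 against 53.8 CPM.

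Genes of the hedgehog list were also higher in the library labelled Tbx1neo2/neo2. In Pdgfra-positive cells of the library labelled Tbx1neo2/neo2, 5 of 11 genes were at least 2-fold above the control and 0 below, with a list median of 0.85, against 19.4% of all genes apart. The Foxn11089/1089 library had 0 above and 1 below, with a list median of 0.02, against 12.8%. The list was not higher in the mesenchyme alone. In Cdh5-positive cells of the library labelled Tbx1neo2/neo2, 5 of 8 genes were above the control, against 27.5% of all genes apart. In its Epcam-positive cells it was 3 of 12, not far from the 19.9% of all genes apart. The list medians were 1.13 and 0.68. Outside the mesenchyme the Foxn11089/1089 library also had genes above the control. There it was 3 of 8 in Cdh5-positive cells, against 20.1% of all genes apart. In Epcam-positive cells it was 3 of 11, not far from the 24.9% of all genes apart. Both had 0 below, with list medians of 0.34 and 0.55. Gli1, a factor and target of the pathway, was at 1.48, 8.93 and 2.04 CPM in the control library, the library labelled Tbx1neo2/neo2 and the Foxn11089/1089 library. Ptch1, the hedgehog receptor, was at 4.0, 19.9 and 4.54 CPM, and Hhip, a secreted inhibitor, had 0, 174 and 3 UMIs. Gas1, a co-receptor, was not higher, at 621, 532 and 706 CPM.

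Foxc1 and Foxc2, the main mesenchymal forkhead genes besides FoxP, were within 2-fold of the control. Foxc2 was at 30.4, 49.9 and 34.6 CPM in Pdgfra-positive cells from 205, 1862 and 1257 UMIs, with ratios of 0.35 (0.14 to 0.57) and 0.03 (-0.19 to 0.25). Foxc1 was at 26.1, 48.6 and 24.3 CPM from 176, 1814 and 882 UMIs, with ratios of 0.54 (0.31 to 0.77) and -0.26 (-0.50 to -0.02). Foxn3 was at 37.8, 60.6 and 49.4 CPM, with ratios of 0.32 (0.13 to 0.51) and 0.23 (0.04 to 0.42). All 3 were under 2-fold in both libraries. Foxc2 lies between Foxf1 and Foxl1 on chromosome 8, with 28027 and 9045 bases between the genes, and in the library labelled Tbx1neo2/neo2 the ratio of Foxf1 was 3.21 beside 0.35 for Foxc2 and -0.04 for Foxl1. Foxl1, a hedgehog target of gut mesenchyme, was at 2.07, 2.60 and 1.65 CPM. In the Foxn11089/1089 library the intervals of the 3 ratios overlapped, at -0.24, 0.03 and -0.49. In the annotation all 3 are overlapped on the same strand by Gm20388, and how reads shared with it were counted is not given in the sources used here.

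The remaining mesenchymal genes that were apart were scarce. Foxs1 in Pdgfra-positive cells had 34, 334 and 67 UMIs, or 5.04, 8.95 and 1.85 CPM, with ratios of 0.47 (-0.04 to 1.02) and -1.61 (-2.23 to -0.97), so it was low in the Foxn11089/1089 library here as well. Foxd2 had 2, 35 and 9 UMIs and a ratio of 1.30 (-0.66 to 4.40) in the library labelled Tbx1neo2/neo2. Foxd1 was steadier at 10.5, 19.3 and 14.6 CPM, with ratios of 0.51 and 0.31.

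In Cdh5-positive cells, 51 to 108 per library, FoxC genes were higher in the library labelled Tbx1neo2/neo2. Foxc1 had 9, 306 and 151 UMIs in the control library, the library labelled Tbx1neo2/neo2 and the Foxn11089/1089 library, or 10.9 (4.98 to 20.7), 86.9 (77.5 to 97.2) and 28.2 (23.8 to 33.0) CPM, with ratios of 2.53 (1.59 to 3.68) and 1.07 (0.11 to 2.23). Foxc2, which acts in arteries and lymphatic valves, had 3, 159 and 26 UMIs, or 3.63, 45.2 and 4.85 CPM, with ratios of 3.17 (1.60 to 5.47) and 0.12 (-1.59 to 2.48). For Foxc2 the control and Foxn11089/1089 libraries overlapped.

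Foxc2 was found in 56 of the 94 endothelial cells of the library labelled Tbx1neo2/neo2. Those cells held Gja5, an arterial connexin, at 134 CPM beside 22.8 CPM, Prox1, a lymphatic factor, at 80.6 beside 34.3 CPM, and Foxc1 at 110 beside 38.7 CPM. Prox1 was found in 11 of the 56 cells. Twist1, a gene of the mesenchymal list, was also higher in them, at 15.5 beside 2.64 CPM. Sox9 was at 41.6 beside 1.76 CPM, with UMIs in 3 of the 56 cells, and the mesenchymal gene Postn was at 3.78 beside 5.27 CPM. The mesenchymal list was higher too in these libraries, at 31.5, 150 and 373 CPM with 4 of 8 genes at least 2-fold higher and 1 lower in the library labelled Tbx1neo2/neo2 and 8 of 8 higher in the Foxn11089/1089 library, and its part was not tested. Without cells holding markers of other tissues, a rule that left out 4 of 51, 62 of 94 and 59 of 108 cells, the Foxc1 ratios were 0.96 and 0.15.

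The most abundant endothelial gene was Foxp1, at 102 (81.1 to 126), 266 (249 to 283) and 104 (95.8 to 113) CPM from 84, 935 and 559 UMIs, with ratios of 0.92 (0.60 to 1.26) and -0.27 (-0.60 to 0.08). Foxn3 was at 25.4, 66.5 and 39.5 CPM, with ratios of 0.92 (0.28 to 1.64) and 0.34 (-0.31 to 1.06). Both were under 2-fold. The other endothelial genes apart rest on few control UMIs. Foxj3, a ubiquitous FoxJ gene, had 3, 62 and 116 UMIs and ratios of 1.81 (0.20 to 4.13) and 2.27 (0.69 to 4.57). Foxm1 had 2, 36 and 67 UMIs and ratios of 1.62 (-0.34 to 4.72) and 2.07 (0.16 to 5.14).

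Foxp4 in Cdh5-positive cells had 4, 65 and 36 UMIs, with a ratio of 1.47 (0.04 to 3.39) in the library labelled Tbx1neo2/neo2. Foxp2 had 4, 58 and 43 UMIs there, with a ratio of 1.30 (-0.13 to 3.23), and 25 of the 58 were in 1 cell. Foxj2 was lower in the Foxn11089/1089 library, with 9, 30 and 24 UMIs and ratios of -0.82 (-1.93 to 0.44) and -1.58 (-2.74 to -0.30). Most of these intervals reach well below 2-fold.

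In Ptprc-positive cells the members other than Foxo3, Foxn2 and Foxp2 were within 2-fold of the control. Foxp1, which keeps lymphocytes quiescent, was at 84.2 (78.9 to 89.7), 124 (119 to 129) and 104 (98.0 to 111) CPM, with ratios of 0.20 (0.09 to 0.31) and 0.08 (-0.05 to 0.21). Foxk2 was at 19.0, 25.8 and 20.6 CPM (ratios of 0.08 and -0.11) and Foxn3 at 16.7, 20.7 and 21.2 CPM (ratios of -0.05 and 0.12). Foxp2 had 1, 23 and 14 UMIs, with ratios of 3.49 (0.87 to 8.86) and 3.81 (1.09 to 9.21), and 12 of the 14 were in 1 cell. Of the thymocyte list, 0 of 6 genes were lower in the library labelled Tbx1neo2/neo2 and 5 of 6 in the Foxn11089/1089 library. Of the myeloid list, 5 of 6 were higher in both, with list medians of 1.35 and 1.78. Of all genes, 13.4% and 18.6% were apart in these 2 comparisons. The part of these lists in the Ptprc-positive ratios was not tested. Foxp3, the factor of regulatory T cells, had 2, 3 and 6 UMIs in all kept cells.

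Foxm1 followed cycling cells in every library. Epcam-positive cells with at least 3 UMIs of 10 mitotic genes had Foxm1 at 10.7, 20.8 and 12.8 CPM in the control library, the library labelled Tbx1neo2/neo2 and the Foxn11089/1089 library, and the others at 1.97, 2.24 and 1.57 CPM. In Pdgfra-positive cells the values were 26.4, 23.6 and 20.4 CPM beside 1.59, 1.82 and 1.02 CPM. Over all cells of the class Foxm1 was at 9.16, 18.7 and 9.85 CPM in the epithelium and 10.2, 11.4 and 10.5 CPM in the mesenchyme. The epithelial ratios were 0.64 (0.45 to 0.83) and -0.19 (-0.38 to 0.00), and the first was 1.03 without centring. The mesenchymal ratios were -0.20 and -0.13. The cycling list had 0 of 10 genes at least 2-fold apart in either Epcam comparison.

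The remaining broad genes, Foxk1, Foxk2, Foxj2 and Foxj3, were under 2-fold in Epcam-, Pdgfra- and Ptprc-positive cells of both mutant libraries. Foxk2, a Sin3 partner, was at 22.9, 29.3 and 17.1 CPM in Epcam-positive cells from 777, 1248 and 1719 UMIs, with ratios of -0.03 (-0.16 to 0.10) and -0.71 (-0.84 to -0.59). Of the Sin3 list 0 of 6 genes were at least 2-fold apart in any class. Across the classes and libraries Foxk1 ranged from 4.54 to 14.5 CPM, Foxj2 from 1.31 to 12.0 CPM and Foxj3 from 3.63 to 22.2 CPM.

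The other 15 genes had under 30 UMIs in every class. In all kept cells of the 3 libraries Foxf2 had 2, 31 and 2 UMIs and Foxr1 6, 2 and 16 UMIs. Foxl2 had 2, 0 and 12 UMIs, Foxi2 2, 0 and 10, Foxa3 3, 6 and 3, Foxd4 7, 1 and 2, and Foxn4 3, 1 and 5. Foxb1, Foxb2, Foxh1, Foxi3, Foxo6os and Foxr2 had at most 5 UMIs in any library. Foxe3 had none in any library. These genes were too scarce to compare at this depth.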

How the data were processed

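Droplet 3′ single-cell RNA sequencing of fetal thymic lobes gave 3 libraries, 1 per genotype. The authors used Cell Ranger 3.0.0 for alignment to mm10 and for counting, and the deposited values are raw counts per gene and barcode, without normalization. The cluster labels of the authors were not used here. Total counts were 82936619 UMIs in the control library, 137498422 in the library labelled Tbx1neo2/neo2 and 204655055 in the Foxn11089/1089 library.

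Barcodes with fewer than 200 genes or with 20% or more of mitochondrial UMIs were left out. Cells with at least 50% hemoglobin UMIs were called red cells. Raw UMIs were summed per class and library (Python 3.11.15, numpy 2.4.6, scipy 1.17.1). Likely doublets were scored by Scrublet (scanpy 1.11.5), at 0.8% per 1000 barcodes, and stayed in. Shares of cells were taken after thinning to 2000 UMIs, and subsets of a class needed 3 UMIs of a list. The ratio script was tested on simulated data. Coordinates are those of GENCODE M21 on GRCm38 and upstream sequences those of RefSeq, 250 bases before a start.

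Of the genes that matched the rule, 1 is not reported here and enters no count. The members and lists were chosen with earlier results of these data known. Named with full values were members at least 2-fold apart with at least 30 UMIs in the class, at most 10 per comparison, and the 5 most abundant per class. Genes named for cells split by a forkhead gene were chosen after their values were seen. Alternatives changed the centring, the class rule, the cells and the gene minimum. Cells of a library are not replicates, so no test between genotypes was run.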

Additional observations from a re-analysis of the deposited data

Results flagged for a closer look

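Foxa2 in Epcam-positive cells stood out because it lay on opposite sides of the control in the mutant libraries. Its centred log2 ratio was 6.20 in the library labelled Tbx1neo2/neo2, with 726 UMIs against 6, and -2.86 in the Foxn11089/1089 library, with 0 UMIs counted as 3. The difference was not tested, since each genotype has 1 library.

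Foxd3 was found mostly in cells of no class, which the counts of genes apart left out. It was at 14.6 CPM in such cells of the library labelled Tbx1neo2/neo2, with 410 UMIs in 46 cells, and at 4.84 CPM in those of the Foxn11089/1089 library, with 119 UMIs in 16 cells. The control library had 16 UMIs in 7 such cells. The 46 cells of the library labelled Tbx1neo2/neo2 held the neural crest and glial gene Sox10 at 362 CPM beside 1.26 CPM in the rest. The control cells with Foxd3 held Sox10 at 316 CPM.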

How the results depend on the processing

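No paired analysis was possible because each genotype had 1 library. Of 124 counts under the 17 alternatives, 108 were within 1.5 times the reported count. Apart from the setting without centring, given above, the share of all genes apart under each alternative is not shown. The changed counts below are thus not set beside it. In Epcam-positive cells of the library labelled Tbx1neo2/neo2 the 7 genes apart became 12 without centring and 4 without thyroid-list cells. In those of the Foxn11089/1089 library the 13 became 5 with cells thinned to 2000 UMIs and 6 without cells holding markers of other tissues, a rule that left out 91.7% of control Epcam-positive cells. In Pdgfra-positive cells the 3 of the Foxn11089/1089 library became 5 with at least 4 UMIs of the class gene and 6 with a gene minimum of 10 UMIs. In Cdh5-positive cells thinning left 1 forkhead gene to compare and the 10 and 7 became 0. Without cells holding markers of other tissues the 10 became 5, and with a gene minimum of 100 UMIs the 7 became 4. In Ptprc-positive cells the 3 of the library labelled Tbx1neo2/neo2 became 6 without centring, 5 with cells weighted equally and 5 with a minimum of 10 UMIs. The 3 of the Foxn11089/1089 library became 5 without centring, 6 with classes from marker lists and 7 with a minimum of 10 UMIs.

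Of 1167 ratios of single genes under the alternatives, 1057 moved little, 103 moved further and 7 changed sign. Without thyroid-list cells the Foxa1 ratio in Epcam-positive cells of the library labelled Tbx1neo2/neo2 was -0.48. Without the cell with most UMIs of the gene, Foxd3 in the same cells was at -0.30, Foxo4 in Cdh5-positive cells at -0.44 and -0.68, and Foxp2 in Ptprc-positive cells of the Foxn11089/1089 library at -0.585. Foxd2 in Pdgfra-positive cells was at -0.55 with at least 4 UMIs of the class gene, and Foxa2 in Epcam-positive cells of the Foxn11089/1089 library at 0.34 after thinning, where fewer UMIs stand against the 3 counts. The alternatives with no UMI of the other class genes, without thyroid-list cells, without the top cell and without Foxf1 cells were chosen after seeing the data. Taking hemoglobin, mitochondrial and ribosomal protein genes out of the totals cannot change a centred ratio.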
